A study of Mus musculus with 2 samples.

Results

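In unstimulated mouse macrophages, 525 protein-coding genes carried dimethylated lysine 79 of histone H3 (H3K79me2) at the start of an internal transcript and less than 200 bp of it at their outermost annotated 5′ end. They make up 2.41% of the 21755 coding genes on chromosomes 1 to 19 and X. A gene was taken where less than 200 bp of the first 3 kb from its outermost 5′ end lay under the authors' list of peaks from both replicates, called here the replicated list. It also had to have at least 200 bp under that list in the first 3 kb of another annotated transcript whose 5′ end lay over 3 kb downstream. An end or start with at least 200 bp covered in this way is called marked, and the most 5′ of a gene's marked later starts is called its internal start. The genes were thus chosen by the measured peaks, so their number and their coverage are a description with no test.

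The cells were bone-marrow-derived macrophages, primary cells grown from the marrow of C57BL/6J mice, without stimulation. The data hold 1 group of 2 biological replicates, profiled by ChIP-seq with an antibody to H3K79me2. No other strain, genotype, treatment or time is part of the comparison, and the labels record neither sex nor age. Both replicates carry the same donor identifier, and nothing in the labels tells whether separate animals or cultures were used. Replicate 1's own list held 22979 peaks over 63.5 Mb, replicate 2's held 31577 over 114 Mb, and the replicated list held 15559 over 93.2 Mb. Sequencing depth is unknown, since the files hold peaks and not read numbers. An end without a called peak may still carry the modification. Of 10 macrophage marker genes, 9 were marked at the outermost end and Csf1r at an internal start, while 29 markers of other cell types had no covered base.

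H3K79me2 is placed by the methyltransferase Dot1l, which acts together with elongating RNA polymerase II, and it typically begins just downstream of a start that is in use and fades along the gene. Many mammalian genes have several promoters, each with a first exon of its own, and different cell types can use different ones. The annotated outermost 5′ end of a gene is therefore not always the end that a given cell uses, and a mark laid down near active starts can lie at one of them and not at another. Promoters themselves fall broadly into those in CpG-rich stretches, often of widely expressed genes, and CpG-poor ones, often of genes expressed in particular tissues.

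Of 10823 coding genes with an annotated start over 3 kb downstream of the outermost end, 6592 were unmarked at that end. The 525 genes are 7.96% of these 6592. By comparison, 6658 genes, or 30.6% of all coding genes, were marked at the outermost end. The outermost window had no covered base at all in 503 of the 525 genes and some but less than 200 bp in the other 22. The internal start lay in an intron of the outermost transcript in 434 genes, in one of its exons in 46 and beyond its end in 45. Chromosome X held 24 of the 525 genes (4.57%), beside 4.36% of all coding genes.

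The 150 bases before the internal start and before the outermost end are shown for 5 genes to let both starts of a gene be compared by their letters. The kinase genes Csk and Pdpk1, Cd47 and Atf3 have CpG-rich internal starts, and Fcgr3 has the opposite arrangement. All bases run 5′ to 3′ on the gene's own strand, from the RefSeq assembly GRCm38.p6 (mm10), with every CpG in capitals. None of these stretches overlaps an annotated exon of a coding gene.
Csk internal start, chr9:57645654-57645803, - strand: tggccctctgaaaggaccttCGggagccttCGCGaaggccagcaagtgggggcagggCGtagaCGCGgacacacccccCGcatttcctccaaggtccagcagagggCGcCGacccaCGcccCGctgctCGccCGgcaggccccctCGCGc
Csk outermost end, chr9:57653632-57653781, - strand: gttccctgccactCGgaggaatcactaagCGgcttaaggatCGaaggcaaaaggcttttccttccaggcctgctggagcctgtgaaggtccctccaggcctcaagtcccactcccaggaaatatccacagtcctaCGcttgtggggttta
Cd47 internal start, chr16:49855216-49855365, + strand: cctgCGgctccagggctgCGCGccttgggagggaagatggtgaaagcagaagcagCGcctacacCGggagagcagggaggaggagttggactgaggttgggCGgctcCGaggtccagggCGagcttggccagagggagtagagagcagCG
Cd47 outermost end, chr16:49800383-49800532, + strand: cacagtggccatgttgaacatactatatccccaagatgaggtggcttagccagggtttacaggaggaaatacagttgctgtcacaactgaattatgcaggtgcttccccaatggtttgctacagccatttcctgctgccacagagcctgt
Pdpk1 internal start, chr17:24141596-24141745, - strand: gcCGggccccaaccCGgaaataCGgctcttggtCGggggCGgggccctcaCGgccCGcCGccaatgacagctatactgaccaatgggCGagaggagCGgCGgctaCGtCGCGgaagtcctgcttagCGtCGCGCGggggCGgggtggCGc
Pdpk1 outermost end, chr17:24150925-24151074, - strand: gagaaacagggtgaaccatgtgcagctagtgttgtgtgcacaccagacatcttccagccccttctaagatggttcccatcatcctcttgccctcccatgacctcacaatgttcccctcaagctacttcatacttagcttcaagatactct
Atf3 internal start, chr1:191183341-191183490, - strand: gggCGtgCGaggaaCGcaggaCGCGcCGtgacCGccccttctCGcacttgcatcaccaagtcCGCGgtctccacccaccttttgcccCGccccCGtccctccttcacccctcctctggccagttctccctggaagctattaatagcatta
Atf3 outermost end, chr1:191218040-191218189, - strand: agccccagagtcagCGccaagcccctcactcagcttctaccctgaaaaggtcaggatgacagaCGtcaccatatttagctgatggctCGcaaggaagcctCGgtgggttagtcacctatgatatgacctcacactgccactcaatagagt
Fcgr3 internal start, chr1:171059404-171059553, - strand: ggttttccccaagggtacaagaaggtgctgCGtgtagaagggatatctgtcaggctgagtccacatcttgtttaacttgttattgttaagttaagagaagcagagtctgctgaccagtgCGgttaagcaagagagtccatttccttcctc
Fcgr3 outermost end, chr1:171064936-171065085, - strand: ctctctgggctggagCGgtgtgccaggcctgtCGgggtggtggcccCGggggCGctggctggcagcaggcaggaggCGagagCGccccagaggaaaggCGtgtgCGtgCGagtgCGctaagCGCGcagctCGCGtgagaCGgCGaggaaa

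The stretch before the internal start of Csk held 15 CpGs, against 4 before its outermost end. In Pdpk1 the internal stretch had 20 CpGs and the outermost stretch had 0. Cd47 had 9 CpGs before the internal start and 0 before the outermost end, and Atf3 had 12 and 4. Fcgr3 stood the other way round, with 2 CpGs before the marked internal start and 16 before the unmarked outermost end.

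Around the internal start, H3K79me2 was sparse upstream, dense just downstream and sparser again further on. Coverage within the first 3 kb is what chose the starts, so its level there is a description. Coverage was 7.43% of bases between 1000 and 900 bp before the internal start and reached its highest value, 87.6%, between 1500 and 1600 bp after it. Around the outermost ends of the 6658 genes marked there, the highest value was 90.4%, also between 1500 and 1600 bp downstream. In each replicate's own list the shape around the internal start was the same, with a highest value of 67.7% in replicate 1's and 89.7% in replicate 2's. At 5000 to 5100 bp after the internal start, 64.6% of bases of the 525 genes were covered, compared with 58.7% after the outermost ends of the 6658.

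**Figure D1:**
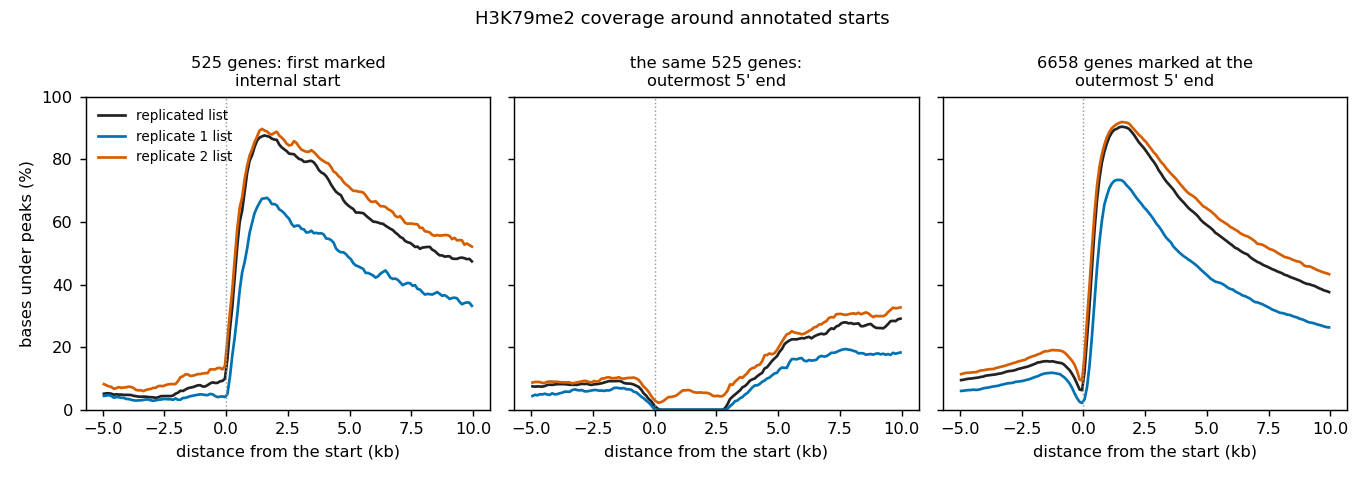
Share of bases under peaks (%) by distance (kb) from the internal start of the 525 genes (left), from their outermost 5′ end (middle) and from the outermost end of the 6658 genes marked there (right), in the replicated list and in each replicate's own list. Coverage climbs just after the start on the left and on the right, to 87.6% and 90.4% in the replicated list; the near-empty first 3 kb of the replicated list in the middle is what the rule requires.

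The covered block at the internal start usually began close to that start. Its 5′ edge lay a median of 420.0 bp downstream of the internal start, compared with 377 bp downstream of the outermost end in the 6658 genes marked there. The edge fell within 1 kb of the internal start in 414 genes (78.9%), beside 85.3% of the 6658 genes at their outermost end. In 427 genes no base was covered between the outermost end and the internal start. The rule shapes this number, since it allows less than 200 bp in the first 3 kb of that stretch. In 126 genes the whole stretch was under 6 kb. The rule also requires coverage in the 3 kb after the internal start, which limits where the edge can fall. In 90 genes the block began over 1 kb downstream of the internal start, and in 21 it began over 1 kb upstream of it. For these 21 genes the block does not begin at the internal start, and the longest lead, 95126 bp, was in Ptprj.

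The internal start lay a median of 14.1 kb from the outermost end, with quartiles of 6.23 and 39.3 kb. It was under 10 kb away in 205 genes, 10 to 50 kb away in 217 and at least 50 kb away in 103. The internal window had a median of 2328 bp covered in the replicated list, with a range of 202 to 3000 bp. The same windows had a median of 1817 bp covered in replicate 1's list and 2485 bp in replicate 2's. Each peak carries a fold over the control, which is the authors' value and serves here only to rank peaks within a list. Its median was 11.1 in the internal windows, with a range of 2.41 to 36.3, beside 11.9 in the outermost windows of the 6658 genes marked there.

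Several of the genes encode receptors and surface proteins by which macrophages sense growth factors, antibodies and other cells. Of 68 receptor genes listed, 16 were unmarked at the outermost end with a later start, and 8 of these were marked at one: Ptprj, Cd47, Csf1r, Cd36, Fcgr3, Ptpro, Cd163 and Cd63. Genes unmarked at the outermost end with a later start are called candidates below. Over all coding genes, 525 of 6592 candidates (7.96%) were marked at a later start, and 6067 were marked at neither position. Over all coding genes, 6658 were marked at the outermost end. The lists used here consist largely of genes that macrophages are known to express, and 47 of these 68 genes were marked at the outermost end. A high share of candidates is therefore not read as a trait of a list. Over the 8 genes the median fold was 11.9, close to the 11.1 of all 525.

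Csf1r, the receptor for colony-stimulating factor 1 on which macrophages depend for survival, lies on chromosome 18 from 61100598 to 61132149 on the + strand. Its internal start, 4.97 kb downstream of the outermost end, had 2779 bp of its 3 kb window covered in the replicated list, 1896 bp in replicate 1's and 2882 bp in replicate 2's. The outermost window had 0 bp in all 3 lists. The outermost transcript of Csf1r is annotated as a processed transcript without a complete coding sequence. Mouse Csf1r is known to have an upstream promoter used in trophoblast cells beside the one used in macrophages. The covered block in Csf1r began 1950 bp upstream of the internal start and 3024 bp from the outermost end, just past the 3 kb window, so its membership rests on the width of that window. Csf1r also overlaps 1 other coding gene, which does not reach its internal or outermost window.

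Fcgr3, which encodes an activating low-affinity receptor for immunoglobulin G, lies on chromosome 1 from 171051174 to 171064935 on the − strand. Its internal start lay 5.53 kb downstream, where 2963 bp were covered in the replicated list, 2777 bp in replicate 1's and 3000 bp in replicate 2's. The block began 37 bp after that start, and no base before it was covered. A marked later transcript shares the start codon of the outermost one, and the RefSeq start matched the internal start and not the outermost end.

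Cd47, a surface protein that signals to phagocytes not to engulf the cell, was covered over 2363 bp at its internal start, 54.8 kb from the outermost end. Replicate 1's list had 2322 bp there and replicate 2's had 2401 bp, with 0 bp at the outermost end in both. Its mark went on over 46162 bp of the gene. The scavenger receptor gene Cd36 had 2277 bp at an internal start 39.0 kb downstream, with 2699 bp in replicate 1's list and 1832 bp in replicate 2's. Cd36 was 1 of 18 genes in which replicate 1's list covered more of the internal window than replicate 2's, beside 492 in which it covered less. The tetraspanin gene Cd63, a marker of late endosomes, had 1520 bp, beginning 1480 bp after an internal start 7.83 kb from the outermost end.

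Ptprj, the gene of a receptor-type tyrosine phosphatase, meets the rule by a narrow margin. Its outermost window had 95 bp covered in the replicated list, 35 bp in replicate 1's and 1593 bp in replicate 2's, so in replicate 2's list its outermost end was marked. The first block began 2905 bp from the outermost end. A separate, later block was 103543 bp long and ran past an internal start 101 kb downstream. The internal window of Ptprj was covered over 3000 bp in the replicated list, but the block there had begun 95126 bp earlier.

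**Figure D2:**
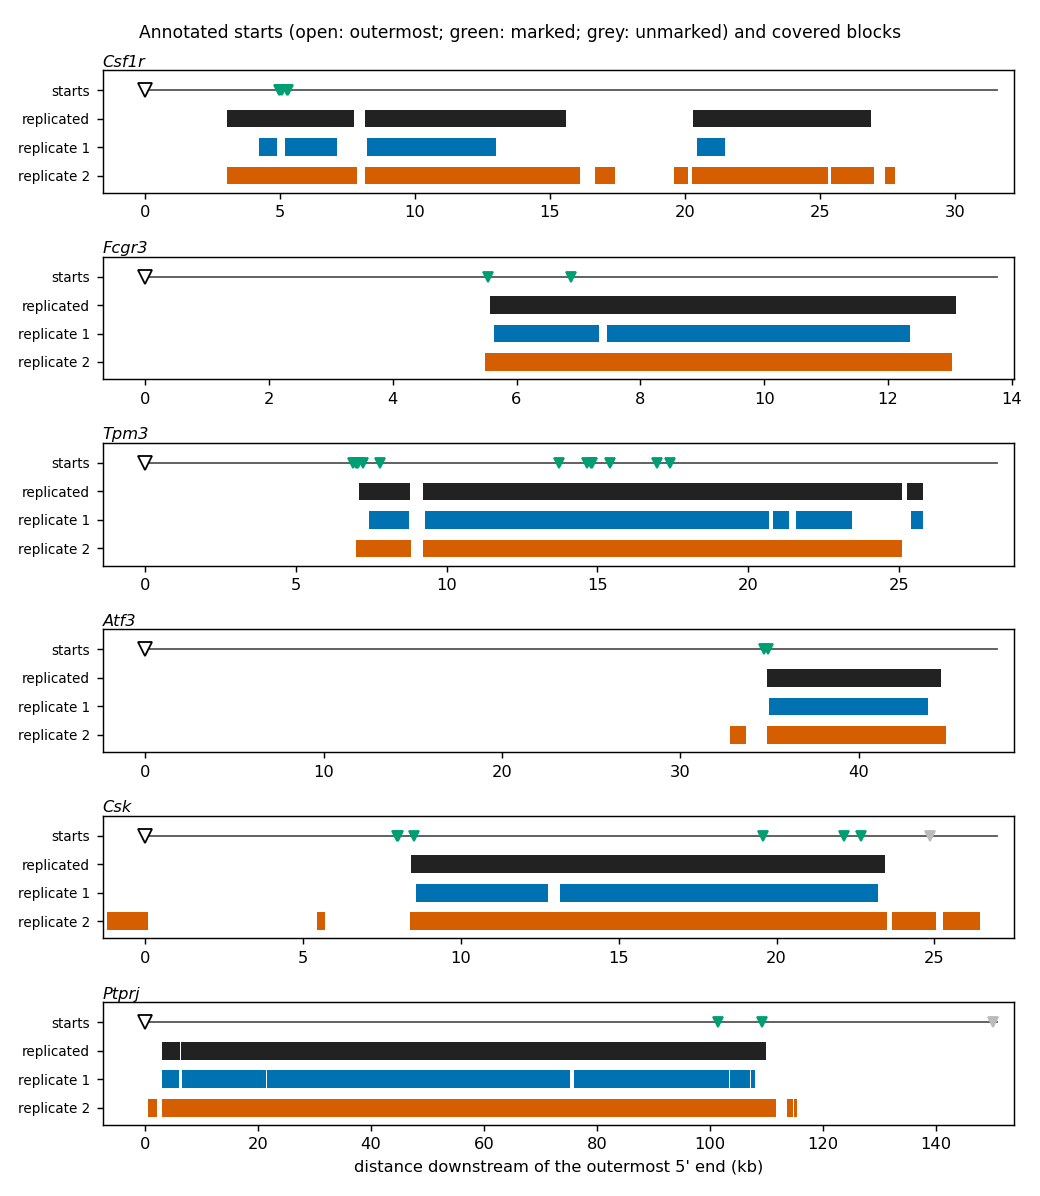
Annotated starts (triangles: open, outermost; green, marked; grey, unmarked) and stretches under peaks in the replicated list and in each replicate's own list, by distance (kb) downstream of the outermost 5′ end, for 6 genes. In Fcgr3, Tpm3, Atf3 and Csk the blocks of the replicated list begin near an internal start; in Csf1r they begin 3024 bp and in Ptprj 2905 bp from the outermost end.

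Transcription factors of the macrophage lineage and its responses formed a second group. Of 51 such genes, 41 were marked at the outermost end. Of the 6 candidates, 4 were marked at a later start (66.7%, beside 7.96% over all genes). Mef2c, a MADS-box factor of myeloid and muscle cells, had 1588 bp covered at its internal start, 19.4 kb downstream, with 1496 bp in replicate 1's list and 1618 bp in replicate 2's. Of the 24 later start positions annotated for Mef2c, 21 were marked, and peaks covered 76741 bp of the gene. Nfatc1, which directs osteoclast formation from the same lineage, had 2674 bp at a start 4.90 kb downstream. Hif1a, the oxygen-regulated factor of the hypoxia response, had 2205 bp at a start 6.53 kb downstream. In both genes the marked transcripts begin translation at a different codon from the outermost one.

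Atf3, a stress-induced factor of the ATF/CREB family, has an internal start 34.7 kb from its outermost end on chromosome 1, from 191170296 to 191218039 on the − strand. The internal window had 2835 bp covered in the replicated list, 2742 bp in replicate 1's and 2832 bp in replicate 2's, and the outermost window had 0 bp in all 3. The block began 165 bp after the internal start and was 9764 bp long. RefSeq gave a start at the internal position and none at the outermost one, and the start codon is the same from either.

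Kinases and phosphatases that set the activity of Src-family and PI3-kinase signalling were represented by 3 of 19 candidate genes in a list of 84. That was 15.8% of candidates, beside 7.96% over all genes, and 62 of the 84 were marked at the outermost end. Csk, which phosphorylates Src-family kinases at their inhibitory tyrosine, had 2566 bp covered at an internal start 7.98 kb downstream. Replicate 1's list covered 2401 bp of this window and replicate 2's covered 2575 bp, while the outermost window had 0 and 81 bp. Pdpk1, the kinase that phosphorylates the activation loop of Akt, had 2606 bp at a start 9.33 kb downstream and a block edge 394 bp after it. Ptpn6 encodes the phosphatase SHP-1, which restrains immune receptor signalling, and in human it has an upstream epithelial and a downstream haematopoietic promoter. In mouse macrophages its internal window, 5.56 kb downstream, had 2731 bp covered, with 2638 bp in replicate 1's list and 2760 bp in replicate 2's. Its outermost window had 0 bp in the replicated list and in replicate 1's, and 664 bp in replicate 2's.

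In innate sensing and NF-κB signalling, 3 of 11 candidate genes (27.3%) were marked internally, beside 7.96% over all genes. Of the 68 listed, 53 were marked at the outermost end. Aim2, the cytosolic DNA sensor of an inflammasome, had 2287 bp covered at a start 68.3 kb from its outermost end, and its outermost window overlaps the neighbouring gene Cadm3. Nfkbiz, an inducible nuclear member of the IκB family, had 2693 bp at a start 16.8 kb downstream and 440 bp at the outermost end in replicate 2's list. The window of Ikbkg, which encodes the NEMO subunit of the IκB kinase, overlaps G6pdx, so its 600 bp cannot be assigned to either gene. Interferon-stimulated genes had no such gene among 2 candidates of 47 listed, and 36 of the 47 were marked at the outermost end.

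Genes of the actin cytoskeleton, adhesion and phagocytosis gave 17 of 20 candidates (85.0%, beside 7.96% over all genes). Of the 81 listed, 60 were marked at the outermost end. Over the 17 genes marked at an internal start the median internal coverage was 2726 bp and the median fold was 15.9. Over all 525 these were 2328 bp and 11.1. Iqgap1, a scaffold that links Rac1 and Cdc42 to actin filaments, had 2752 bp covered at a start 22.6 kb downstream, with 2479 bp in replicate 1's list and 2822 bp in replicate 2's. Tpm3, a tropomyosin whose long and short isoforms begin at different promoters, had 2357 bp at its internal start 6.89 kb downstream and was marked at all 13 of its later start positions. Macf1, a giant linker of actin and microtubules, had the most covered bases of all 525 genes, 152805 bp, beginning 535 bp after a start 19.6 kb downstream. The exchange factor genes Arhgef2, Arhgef6 and Arhgef7, which activate small GTPases, had 2652, 2543 and 2726 bp covered, but Arhgef2 and Arhgef6 had 1249 and 557 bp at the outermost end in replicate 2's list. Fgd4, a Cdc42 exchange factor, was covered over its whole internal window by a block that began 11220 bp upstream of it.

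Cybb, the X-linked gene of the gp91phox subunit of the phagocyte NADPH oxidase, was among the 17 and was chosen for mention after its values were seen. It had 2952 bp at a start 18.4 kb downstream, with 1518 bp in replicate 1's list and 2985 bp in replicate 2's. A wider set of GTPase regulators taken by gene symbol gave 21 of 99 candidates (21.2%, beside 7.96% over all genes). Among them were Arhgap22, Iqsec1, Tiam1 and Rin2. Of the 209 genes in this set, 91 were marked at the outermost end and 97 at neither position.

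**Figure D3:**
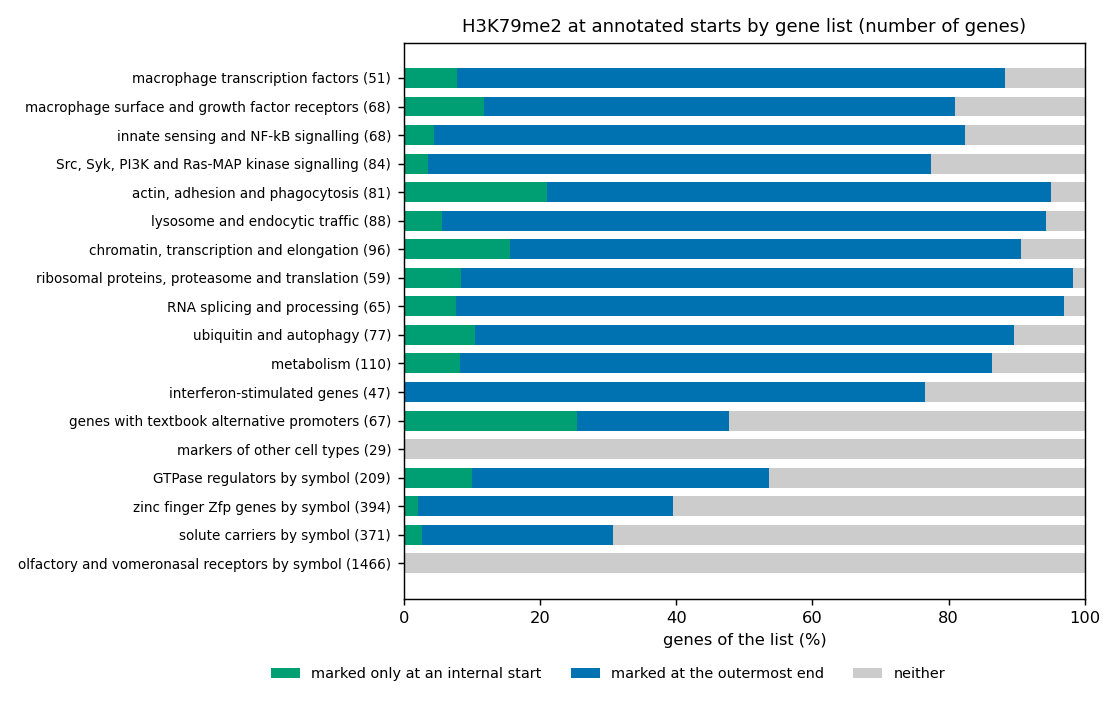
Share of genes (%) in 18 lists that were marked only at an internal start (green), at the outermost 5′ end (blue) or at neither (grey) in the replicated list, with the number of genes in brackets. The green share is 21.0% for the actin list, 25.4% for genes with textbook alternative promoters and 0 for interferon-stimulated genes and for markers of other cell types.

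Endocytic and lysosomal genes gave 5 of 9 candidates (55.6%, beside 7.96% over all genes), while 78 of the 88 listed were marked at the outermost end. Clta, which encodes a clathrin light chain, had 2636 bp covered and a fold of 35.2, but its internal start lies in an exon of the outermost transcript and 1441 bp before it were covered as well. Atp6v1h, a subunit of the proton pump that acidifies lysosomes, had 2639 bp at a start 13.1 kb downstream, with 2603 bp in replicate 1's list and 2670 bp in replicate 2's. Dab2, a clathrin adaptor, had 2823 bp at a start 86.8 kb downstream.

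Chromatin and transcription genes gave 15 of 23 candidates (65.2%, beside 7.96% over all genes), and 72 of the 96 listed were marked at the outermost end. Mllt10, which encodes the Dot1l partner AF10, had 1855 bp covered at a start 9.16 kb downstream, with 1828 bp in replicate 1's list and 1849 bp in replicate 2's. Arid1a, a subunit of the BAF remodelling complex, had 1797 bp at a start 3.16 kb downstream and a fold of 30.4. Its first block began 1203 bp after that start and 4361 bp from the outermost end. With a window of 5 kb, Arid1a no longer met the rule. Tet3, a dioxygenase that oxidises methylated cytosine, had 2890 bp at a start 17.4 kb downstream, and the block there began 110 bp after it. However, 14132 bp of Tet3 were covered before that start, from 3199 bp after the outermost end on, and with a window of 5 kb it no longer met the rule. The E-protein gene Tcf12 had 2636 bp at a start 215 kb downstream, and its outermost end had 42 bp in the replicated list and 1775 bp in replicate 2's. Of the 55130 covered bp of Tcf12, 45867 lay before the internal start, beginning 2958 bp from the outermost end. In Tcf4, another E-protein gene, 293 bp were covered in the internal window, 0 bp in replicate 1's list and 2616 bp in replicate 2's, and replicate 1's list met the rule through another start.

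Genes for ribosomes, the proteasome and translation were nearly all marked at the outermost end, 53 of 59. Of the 6 candidates, 5 (83.3%) were marked at an internal start, beside 7.96% over all genes. Psma6, an α subunit of the 20S proteasome, had 2902 bp covered at a start 14.6 kb downstream, with 2816 bp in replicate 1's list and 2912 bp in replicate 2's. Rps24, a protein of the small ribosomal subunit, had 2734 bp at a start 3.56 kb downstream, and Eif4g1, the scaffold of the cap-binding complex, had 2327 bp at a start 4.41 kb downstream. For Eef1a1, the elongation factor that delivers aminoacyl-tRNA, the window had 2011 bp in the replicated list, 1606 bp in replicate 1's and 1573 bp in replicate 2's. RNA processing genes gave 5 of 7 candidates (71.4%), led by Celf2, a splicing regulator with 95256 covered bp. Ubiquitin and autophagy genes gave 8 of 14 (57.1%). In these lists 58 of 65 and 61 of 77 genes were marked at the outermost end. The internal start of the deubiquitinase gene Usp7 had 2649 bp, and that of Rb1cc1, which encodes an autophagy initiation scaffold, had 2537 bp. Rb1cc1 had 871 bp at the outermost end in replicate 2's list, and 4147 bp covered before its internal start in the replicated list.

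Metabolic genes gave 9 of 21 candidates (42.9%, beside 7.96% over all genes), and 86 of the 110 listed were marked at the outermost end. Hk1, which encodes hexokinase 1, had 1819 bp covered at a start 37.2 kb downstream, with 404 bp in replicate 1's list and 2375 bp in replicate 2's, the widest gap between the replicates among the metabolic genes named here. Acaca, the rate-limiting enzyme of fatty acid synthesis, which has several known promoters, had 1923 bp at a start 50.2 kb downstream. Peaks covered 7843 bp, or 2.88%, of Acaca. Txnrd1, a cytosolic thioredoxin reductase, had 1972 bp at a start 25.2 kb downstream and Idh1, a cytosolic isocitrate dehydrogenase, had 1445 bp at a start 7.32 kb downstream. Dhcr7, a late enzyme of cholesterol synthesis, had 798 bp covered in the replicated list, 14 bp in replicate 1's and 857 bp in replicate 2's.

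Genes with alternative promoters known from textbooks were listed separately, and 17 of their 50 candidates (34.0%) were marked at an internal start. They include Csf1r, Ptpn6, Mef2c, Tpm3 and Acaca, already described, so this list is not independent of the others. Nr3c1, the glucocorticoid receptor gene, whose many first exons share 1 start codon, had 769 bp in the window of its internal start 28.1 kb downstream. All 8 of the later start positions of Nr3c1 were marked, and its longest block was 55014 bp. Dnmt1, the maintenance DNA methyltransferase gene with an oocyte-specific promoter, Gnas, an imprinted gene with several promoters, and the osteoblast factor gene Runx2 were members as well. Zinc finger genes named Zfp gave 8 of 115 candidates (6.96%) and solute carriers 10 of 151 (6.62%), both near the 7.96% of all genes. Olfactory and vomeronasal receptors gave 2 of 632 (0.316%), and the window of 1 of them, Olfr56, overlaps the interferon-inducible gene Ifi47.

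The highest folds among the 525 genes were 36.3 at Ptp4a2, 35.2 at both Chmp4b and Clta, 34.9 at Bri3, 33.8 at Rbpj, 33.1 at Arhgef2, 32.4 at Zmynd8 and 31.6 at Dgkz. Ptp4a2, a prenylated tyrosine phosphatase, had 2514 bp covered at a start 9 kb downstream, with 2407 bp in replicate 1's list and 2540 bp in replicate 2's. Rbpj, the DNA-binding partner of Notch, had 2151 bp at a start 124 kb downstream. Bri3 was at 0 bp at the outermost end in the replicated list and at 3000 bp in replicate 2's, and 5206 bp were covered before its internal start. The most covered genes after Macf1 were Cdk14 with 137503 bp, Gramd1b with 125748 bp, Rbm47 with 124603 bp and Nav2 with 122454 bp. Of these, Gramd1b had 0 bp at the outermost end in the replicated list but 801 bp in replicate 2's, so its classification depends on the list.

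The longest distance was in Celf2, where the internal start lay 787 kb from the outermost end, followed by Zfhx3 at 772 kb, March1 at 768 kb, Frmd4a at 542 kb and Rasgef1b at 476 kb. March1, a ubiquitin ligase gene that acts on MHC class II, had its whole window of 3000 bp covered in the replicated list and in replicate 2's, and 0 bp in replicate 1's. The shortest distances were 3 kb in Pigq and Tcf4, 3.01 kb in Pqlc1, 3.02 kb in Osgin1 and 3.03 kb in Coro1a, an actin-binding protein of leukocytes. In these 5 genes the internal window begins where the outermost one ends.

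The sequence around the starts was not used to choose the genes. A start counted as CpG-rich where, within 500 bp either side, the ratio of observed to expected CpG was 0.6 or more and GC made up 50% or more of the bases. The internal start was CpG-rich in 306 of the 525 genes (58.3%) and the outermost end in 137 (26.1%). In 234 genes the internal start was CpG-rich and the outermost end was not, in 65 it was the reverse, in 72 both were and in 154 neither was. The median observed to expected ratio was 0.68 at the internal start and 0.33 at the outermost end. For comparison, the outermost end was CpG-rich in 81.9% of the 4231 genes with a later start that were marked there, and in 38.4% of the 6067 in which neither the outermost end nor a later start was marked.

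CpG-rich later starts were more common among the 525 genes than in the other genes with a later start. The 525 were chosen for a marked later start, which limits this comparison. In the 4231 genes marked at the outermost end, that end was CpG-rich in 81.9% and is not counted as a later start. At least 1 later start was CpG-rich in 67.2% of the 525 genes, in 3.36% of the 4231 marked at the outermost end and in 7.81% of the 6067. The 525 genes had more later starts, a median of 5 positions compared with 2 in both other groups. Taking only the first later start of each gene, marked or not, gave 53.1%, 2.32% and 5.08%. Genes with more annotated later starts also met the rule more often: 1.01% of candidates with 1 later start position, 7.15% with 2 to 4, 23.4% with 5 to 9 and 32.6% with at least 10.

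**Figure D4:**
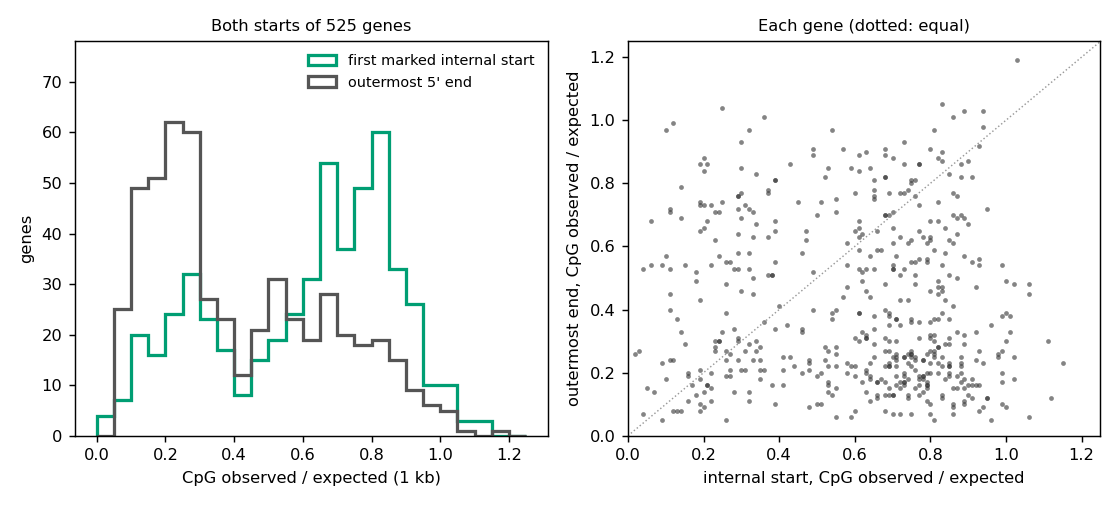
Observed to expected CpG ratio in 1 kb around the internal start (green) and the outermost 5′ end (grey) of the 525 genes, as counts of genes (left) and for each gene as a point (right, dotted line at equal values). Most internal starts lie at high ratios and most outermost ends at low ones, with medians of 0.68 and 0.33, and 359 points lie below the line.

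The macrophage receptors differed among themselves in this respect. The internal start of Csf1r had a ratio of 0.16 and its outermost end 0.19, Cd36 had 0.09 and 0.23, and Fcgr3 had 0.20 and 0.84. Among the 8 receptor genes, Cd47 alone had a CpG-rich internal start, at 0.73, with 0.20 at the outermost end. In Cd63 the internal start had 0.28, but its most covered marked start, with 2516 bp, was CpG-rich at 0.79. Of the transcription factor genes, Atf3 had 0.76 and 0.25, Hif1a 0.87 and 0.33, and Nfatc1 0.90 and 0.87. Genes with CpG-rich and CpG-poor internal starts had a median fold of 11.9 and 10.4 and a median coverage of 2332 and 2287 bp. The block began a median of 461 bp after CpG-rich and 303 bp after CpG-poor internal starts.

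Short motifs were searched in 300 bases, from 250 before to 50 after each start, on both strands. GAGGAA, the core recognised by the macrophage factor PU.1, stood in 29.5% of internal starts and 33.9% of outermost ends of the 525 genes, beside 27.8% of the outermost ends of all coding genes. Within the internal starts, it stood in 40.6% of the CpG-poor and 21.6% of the CpG-rich ones. The motif GGGCGGG, bound by Sp1 and itself holding a CpG, stood in 38.9% of internal and 26.1% of outermost windows, and in 31.8% of all. TATAAA, the core of the TATA box, stood in 7.05% and 9.33%, and in 12.7% of all. At the outermost ends of the 6658 genes marked there, GAGGAA stood in 28.0%, GGGCGGG in 47.4% and TATAAA in 6.80%. Beside those marked ends, internal starts held GGGCGGG less often, and GAGGAA and TATAAA about as often. CCGGAAG was also searched, and it too was less frequent, at 13.1% of internal starts and 21.9% of those marked ends. It stood in 8.19% of the outermost ends of the 525 genes and 10.9% of all. The longer GAGGAAGT stood in 4.57% of internal starts and 3.63% of those marked ends. A match is a run of letters and not a binding site. Of the stretches printed above, the internal ones of Csk, Atf3 and Fcgr3 each hold GAGGAA 1 time on either strand, and those of Cd47 and Pdpk1 hold none. Of the outermost stretches, those of Csk and Cd47 hold it 1 time and that of Fcgr3 2 times, and those of Pdpk1 and Atf3 hold none.

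The outermost ends of these genes less often belonged to well-supported transcripts. The outermost transcript was in GENCODE's basic set, its subset of representative transcripts, in 247 of the 525 genes (47.0%), compared with 81.4% of the 4231 genes marked at that end and 77.3% of the 6067 marked at neither. A transcript in the basic set began at the internal start in 373 genes (71.0%). A RefSeq start lay within 100 bp of the internal start in 270 genes (51.4%) and of the outermost end in 171 (32.6%). RefSeq had a start at the internal position only in 179 genes, at the outermost one only in 80, at both in 91 and at neither in 175. The outermost transcript was of the protein-coding type in 392 genes, and the transcript at the internal start in 435.

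Whether marked later transcripts keep the start codon of the outermost one could be read for 369 genes. In these, the outermost transcript and a marked later transcript, not always one at the internal start, have a complete coding start. In 213 of the 369 (57.7%) a marked later transcript uses the same start codon as the outermost one, as in Fcgr3, Cd47, Atf3, Csk, Pdpk1 and Mef2c. In 156 (42.3%) no marked later transcript uses that start codon, as in Tpm3, Iqgap1, Hif1a, Nfatc1, Psma6 and Ptpn6. Counting any later start, marked or not, the same start codon was shared in 60.7% of 379 of the 525 genes, beside 53.4% of 960 genes marked at the outermost end and 62.3% of 2590 marked at neither. Of the remaining genes, 126 have an outermost transcript without a complete coding start, as in Csf1r and Rps24, and 30 have none at the marked starts. These are statements about the annotation, since no transcripts were measured.

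Each replicate's own list was then read by the same rule. Because the replicated list was made from both, this is not independent of how the genes were chosen. In replicate 1's list 451 of the 525 genes were marked only at an internal start, 74 at neither position and 0 at the outermost end. In replicate 2's list 461 were marked only at an internal start, 62 at the outermost end and 2 at neither. Both lists gave internal marking only for 401 genes (76.4%). Over all coding genes, replicate 1's list gave 494 such genes (7.06% of its candidates) and replicate 2's gave 580 (9.75%). The pooled list, called on the combined reads, gave 562 (9.19%).

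Disagreement between the replicates mostly took the form of a mark in replicate 2's list where replicate 1's had none. Of the 119 genes that met the rule in replicate 2's list and not in the replicated list, 117 were unmarked at both positions in the replicated list. Of the 43 that did so in replicate 1's list, 41 were marked at the outermost end in the replicated list. The internal window had no covered base in replicate 1's list in 85 genes and in replicate 2's in 2. The 401 genes marked only at an internal start in both lists had a median fold of 12.4 in the replicated list, against 6.04 in the other 124. The 62 genes whose outermost end was marked in replicate 2's list include Arhgef2, Bri3, Nfkbiz, Ptpn6 and Ptprj, and their classification depends on the list.

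**Figure D5:**
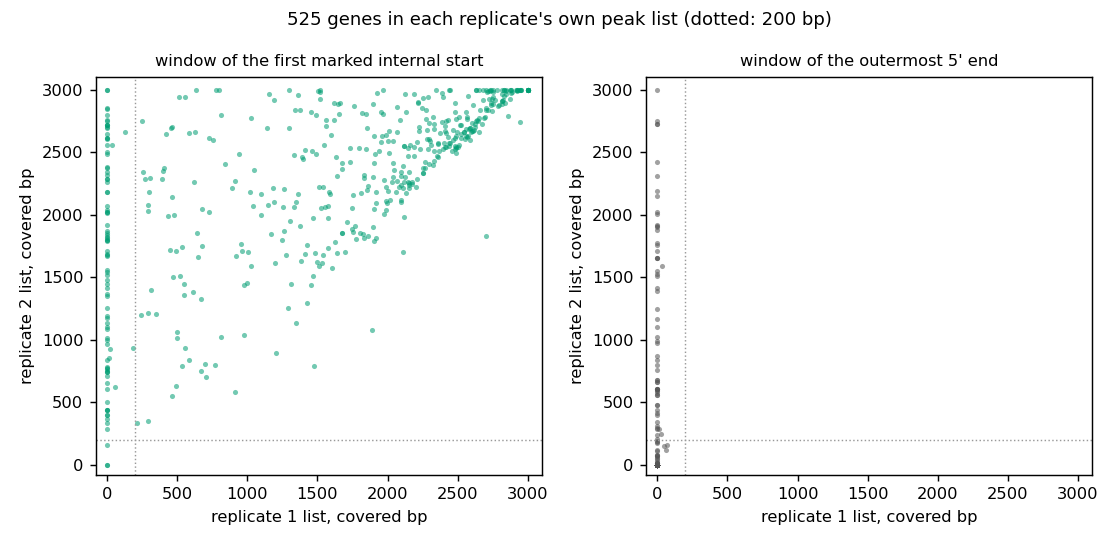
Covered bases (bp) in replicate 1's list and replicate 2's list for the 525 genes, in the window of the internal start (left) and of the outermost 5′ end (right), with dotted lines at 200 bp. On the left 492 genes lie above equal coverage and 85 lie at 0 on the horizontal axis; on the right no gene passes 200 bp in replicate 1's list and 62 do in replicate 2's.

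Among genes that met the rule in replicate 2's list only, with no covered base in the internal window in replicate 1's, the most covered were Nsd1, Zfhx3, Huwe1, Rgl1 and Tacc1. Nsd1, a histone H3 lysine 36 methyltransferase gene, had 2645 bp in replicate 2's list and 0 bp in replicate 1's. In the replicated list, 38792 of the 44992 covered bp of Nsd1 lay before its internal start, and in the ubiquitin ligase gene Huwe1 it was 31388 of 31784 bp. Foxp1, a forkhead repressor gene, met the rule in replicate 1's list through another start. In replicate 2's list its outermost end was marked, with 603 bp. Its first marked start had 548 bp in the replicated list and 0 bp in both replicates' own lists. In the replicated list 9885 bp of Foxp1 were covered before that start, and the gene overlaps Gm20696.

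Near the 200 bp threshold, the genes with the least coverage at any later start that still met the rule were Runx2 with 326 bp, Dph1 with 353, Sqor with 370, Dlg1 with 387 and Huwe1 with 396. Just outside it were Pgap2 with 185 bp, Shc4 with 175 and Rbm4b with 115, and the next genes had 0. On the outermost side, Slc15a3 with 196 bp, Morf4l2 with 168, Mrpl48 and Ptms with 156 each and Dusp3 with 151 still met the rule. Idua with 213 bp, Tbxas1 with 234, Dok2 with 245, Rbms1 with 300 and Ccr2 with 311 did not, since their outermost ends counted as marked.

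Of the 525 genes, 180 overlap another coding gene somewhere along their length, and in 41 another coding gene reaches into the internal window. A peak carries no strand, so the mark in those windows cannot be assigned to one gene. In 97 genes another coding gene overlaps the outermost window, as in Aim2, Atp6v1h and Runx2. Acaca, Bri3, Dgkz, Hif1a, Mllt10 and Txnrd1 each overlap 1 other coding gene outside both windows. In 94 genes the first covered block anywhere in the gene began over 1 kb from every annotated start of the gene. That block is not always the one at the internal start. In Skp2, for example, the first block began 6889 bp from the nearest annotated start, and the block at the internal start began 55 bp after it.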

How the data were processed

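H3K79me2 ChIP-seq peaks of 2 replicates of unstimulated macrophages were analysed as 1 group. Libraries were made from 10 ng of DNA, per the labels, size-selected at 350 to 480 bp, and peaks are on mm10. The deposited lists were made by the authors from replicate 1, replicate 2, the pooled reads and both replicates together. Aligner and peak caller, peak thresholds and the scaling of the fold were not given in the sources used here. Each peak's fold over control is a ratio deposited by the authors, and was used to rank and filter within a list. The deposited −log10 p-value and q-value are the authors' own, and q served as a filter in 1 alternative. The deposited score was not used.

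Overlapping peaks of a list were merged and compared with GENCODE M21 on GRCm38 with Python 3.11.15, numpy 2.4.6 and pysam 0.24.0, and drawn with matplotlib 3.10.9. The window of a later transcript ended at that transcript's own end. CpG content and sequences came from the RefSeq assembly GRCm38.p6. No test was made, since there is 1 group and the peaks chose the genes. The rule was checked on simulated peaks. The genes and lists were chosen with earlier results of these data known. Genes named are those with the highest fold, most covered bases, longest and shortest distances, up to 6 per curated list by covered bases, those marked in 1 replicate's list only, those nearest the thresholds, and Ptprj, Mef2c, Csf1r, Cd63, Fcgr3, Rps24, Psma6, Dhcr7 and Hk1. Some genes this rule takes are not described. Alternatives changed the minimum coverage, window, list, peak threshold, transcript set, distance and treatment of overlapping genes.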

Additional observations from a re-analysis of the deposited data

How the results depend on the processing

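The number of genes stayed between 372 and 580 under all alternatives but a pair: 268 genes met the rule when basic-set transcripts alone were used, and 345 when genes overlapping another coding gene were left out. Leaving out 1 replicate gave 494 to 580 genes. Across all 16 alternatives, 90 of the 525 genes met the rule every time, as did 23 of the 87 genes named by rule.

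The share of CpG-rich internal starts (58.3%) was 54.5% with a 2 kb window, 55.1% with peaks of at least median fold, 55.2% with the basic set, 52.9% and 48.9% with internal starts over 5 and 10 kb away, 54.2% without overlapping genes, and 54.5 to 58.3% with 1 replicate left out. The share of CpG-rich outermost ends (26.1%) was 29.0% with a 5 kb window, 32.3% with peaks of at least median fold, 34.0% with the basic set, 28.8% with starts over 10 kb away, 23.2% without overlapping genes, and 26.0 to 28.1% with 1 replicate left out. It was below the share at internal starts under each alternative.

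The median distance (14.1 kb) was 13.7 and 13.1 kb at a minimum of 500 and 1000 bp, 13.0 and 17.4 kb with windows of 2 and 5 kb, 12.7 kb in the pooled list, 13.2 kb with peaks of at least median fold, 16.1 kb with the basic set, 17.1 and 26.3 kb with starts over 5 and 10 kb away, and 13.7 to 14.1 kb with 1 replicate left out. The share of outermost ends in the basic set (47.0%) was 62.2% with protein-coding transcripts, 49.6% without overlapping genes, 44.8 to 47.0% with 1 replicate left out, and 100% by construction with the basic set. The cause of the other shifts was not tested.

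Some alternatives were chosen after seeing the data. Not ending the window at the transcript end gave 532 genes, and taking the most covered internal start of each gene gave a CpG-rich share of 49.9% and a distance of 16.2 kb. No paired analysis was possible because the data hold 1 group. The depth of the libraries is unknown, so whether an end without a peak lacks the mark could not be shown.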

Other observations

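Genes that met the rule in 1 replicate's list and not in the replicated list included several with long covered stretches, named here by covered bases. In replicate 2's list, Zfp608 had 2688 bp covered at an internal start 35.8 kb from its outermost end, and Pde4b, a cyclic AMP phosphodiesterase gene, had 2114 bp at one 483 kb away. Hvcn1, which encodes a voltage-gated proton channel of phagocytes, had its window of 3000 bp covered at a start 3.10 kb downstream and 32 bp at the outermost end. In the replicated list, all 3 of these genes were marked at neither position. In replicate 1's list, Tbxas1, the gene of thromboxane synthase, had 2880 bp at a start 43.6 kb downstream and 0 bp at its outermost end, where replicate 2's list had 246 bp and the replicated list 234 bp. Pid1 met the rule in both replicates' own lists, with 2856 bp in replicate 1's and 2859 bp in replicate 2's at a start 79.5 kb downstream and 0 bp at the outermost end in both, yet the replicated list had 502 bp there.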
